A study of Macaca fascicularis with 12 samples.

Results

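The genes described here are ISG15, a small protein of the ubiquitin kind, and the enzymes that attach it to other proteins or take it off again: UBE2L6, HERC5, HERC6 and USP18. Transcripts were measured in the brains of 3 cynomolgus macaques, adult males, 2 days after injection into the striatum. BV tissue is from the left hemisphere, which received the baculovirus BV-HSVtk in 4 injections of 10 µL with 1e8 viral particles each. Mock tissue is from the right hemisphere of the same animals, injected at matching coordinates with Sf9 insect cell medium that held no virus and had been purified in the same way. A piece of tissue gave 1 array, with 2 pieces per hemisphere, so there were 6 BV and 6 mock arrays from 3 animals. Replicate numbers 1 and 2 were taken as animal 1, 3 and 4 as animal 2, and 5 and 6 as animal 3. Odd numbers were taken as piece 1 and even numbers as piece 2. Every animal had virus on the left, so the treatment and the side of the brain cannot be told apart.

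The members were all probe sets (groups of array probes for 1 transcript) whose only gene symbol in the platform annotation was one of the 5 names. This gave 3 probe sets among 52766 that are not array controls, 1 each for ISG15, UBE2L6 and HERC6, and all 3 passed the filter on low signal. HERC5 had no probe set under its own symbol. USP18 was listed on 1 probe set together with a second gene, TUBA8, which lies next to USP18 in the cynomolgus assembly T2T-MFA8v1.1. A probe set with several symbols was not used, so HERC5 and USP18 have no value here. In the same assembly HERC5 and HERC6 are neighbouring genes.

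Interferons are secreted when cells sense infection, and ISG15 is among the genes they induce most. Its attachment, called ISGylation, runs through a chain: UBA7 is the activating enzyme (E1), UBE2L6 the conjugating enzyme (E2), and HERC5 the main ligase (E3) in humans, whereas in mice, which lack HERC5, HERC6 has that role. USP18 removes ISG15 from its targets and separately dampens signalling from the type I interferon receptor. ISG15 also occurs unattached, inside cells and secreted. The arrays measure transcripts only, and neither conjugates nor proteins.

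Signals below were quantile-normalized over the 12 arrays, and differences are BV minus mock on the log2(signal + 3.49) scale. The standard error (SE) and the p-value come from limma on the means of both pieces, with animal as a block and Benjamini-Hochberg adjustment over the 31660 probe sets tested. In that test 9 probe sets were raised, 0.0284% of those tested, and 0, or 0%, lowered (2787 had an unadjusted p below 0.05 in either direction). Of the 3 member probe sets, 1 was called, ISG15, and all 3 had an unadjusted p below 0.05, as did 5.15% of all probe sets in the higher direction.

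ISG15, the modifier itself, had normalized signals between 1649 and 4747 in BV arrays, with a median of 3755, against 183 to 542 in mock arrays, with a median of 236. The groups did not overlap: the lowest BV array, replicate 1, lay 1.60 log2 units above the highest mock array, replicate 5. All 6 BV arrays were above all 6 mock arrays for 0.237% of tested probe sets. The mean log2 signal was 11.65 ± 0.44 in BV tissue and 8.09 ± 0.35 in mock tissue (SD over animals, n = 3). ISG15 rose 11.8-fold, a log2 difference of 3.56 ± 0.13 (SE, n = 3 animals; limma adjusted p = 0.00539), and ranked 1 of 31660 by size and by p.

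The differences for ISG15 were 3.36, 3.60 and 3.71 in animals 1, 2 and 3. They were less alike between the pieces of one animal. In animal 1 the pairs of replicates 1 and 2 gave 2.37 and 4.35, in animal 2 replicates 3 and 4 gave 3.59 and 3.60, and in animal 3 replicates 5 and 6 gave 3.07 and 4.36. The piece averages thus hid gaps of 1.98 in animal 1 and 1.29 in animal 3. With the 6 replicate numbers as block on single arrays the SE was 0.24 and the call stood (adjusted p = 0.00184). Mock replicate 5 had the highest ISG15 signal of the mock arrays, 542, and the next was replicate 1 at 316. The call was lost without mock replicate 5 (3.75, adjusted p = 0.332), without both arrays of replicate 5 (3.72, 0.212) or of replicate 2 (3.26, 0.0918), and in the piece 2 arrays alone (3.82, 0.125).

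HERC6, the ligase of the HERC family that carries this role in mice, had normalized signals from 144 to 757 in BV arrays, with a median of 298, against 54.0 to 125 in mock arrays, with a median of 76.1. The groups did not overlap here either, but by a narrow margin of 0.19 log2 units between BV replicate 4 and mock replicate 5. The mean log2 signal was 8.25 ± 1.01 in BV tissue and 6.33 ± 0.36 in mock tissue (SD, n = 3), and the 3 animals were thus further apart in BV than in mock tissue. The log2 difference of 1.92 ± 0.26, or 3.79-fold, did not pass (limma adjusted p = 0.231; unadjusted 95% interval 2.43-fold to 5.90-fold). It ranked 54 of 31660 by size.

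HERC6 was higher in BV tissue in 6 of 6 replicate pairs, as were 3.37% of tested probe sets. The pair differences were 1.02 and 2.48 in animal 1, 1.63 and 1.11 in animal 2, and 2.56 and 2.73 in animal 3. Animal 3 had the highest BV signals, at 757 and 550, and animal 2 had 2 of the lowest 3, at 174 and 144. With the 6 replicate numbers as block, HERC6 was called (1.92 ± 0.25, adjusted p = 0.0266), in a fit that calls 0.167% of probe sets raised and counts both pieces of an animal as if they were separate animals. HERC6 was also called with an animal block and a piece term on single arrays (adjusted p = 0.0325). That fit likewise counts the pieces of a hemisphere as independent, and it called 38 probe sets. HERC6 was not called with a piece term and an estimated correlation within animals (duplicateCorrelation, adjusted p = 0.0715) or with animals not blocked (adjusted p = 0.817). Leaving arrays out, it was called without animal 2 (2.21, 0.000214), without animal 3 (1.56, 0.029) and without mock replicate 6 (1.82, 0.0481). These fits called 1843, 73 and 42 of the 31660 probe sets, against 9 in the main fit, and those without an animal rest on fewer animals.

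UBE2L6, the E2 that takes ISG15 from UBA7, had the smallest difference of the measured members. Its normalized signals were 931 to 3189 in BV arrays, with a median of 2399, against 376 to 1833 in mock arrays, with a median of 943. The groups overlapped: BV replicate 1, at 931, lay below mock replicates 3, 4 and 5, at 1009, 1833 and 1475, and BV replicate 3, at 1530, below mock replicate 4. The mean log2 signal was 11.01 ± 0.50 in BV tissue and 9.75 ± 0.59 in mock tissue (SD, n = 3). The log2 difference of 1.26 ± 0.29, or 2.39-fold, did not pass (limma adjusted p = 0.462; unadjusted 95% interval 1.46-fold to 3.92-fold) and ranked 230 of 31660 by size.

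UBE2L6 was nonetheless higher on the BV side in 6 of 6 pairs, as were 3.37% of tested probe sets. The highest mock arrays, replicates 4 and 5, had BV partners at 2140 and 3189. The pair differences were 1.10 and 1.60 in animal 1, 0.60 and 0.22 in animal 2, and 1.11 and 2.93 in animal 3. In animal 2 the mock hemisphere had the highest mean log2 signal of the mock tissues, 10.41, against 9.28 in animal 1 and 9.55 in animal 3. Its BV hemisphere, at 10.82, was between those of animal 1, at 10.62, and animal 3, at 11.57. UBE2L6 was called without animal 2 (1.68, adjusted p = 0.000225), where 1843 probe sets were called, and did not pass with the replicate numbers as block (adjusted p = 0.168).

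**Figure D1:**
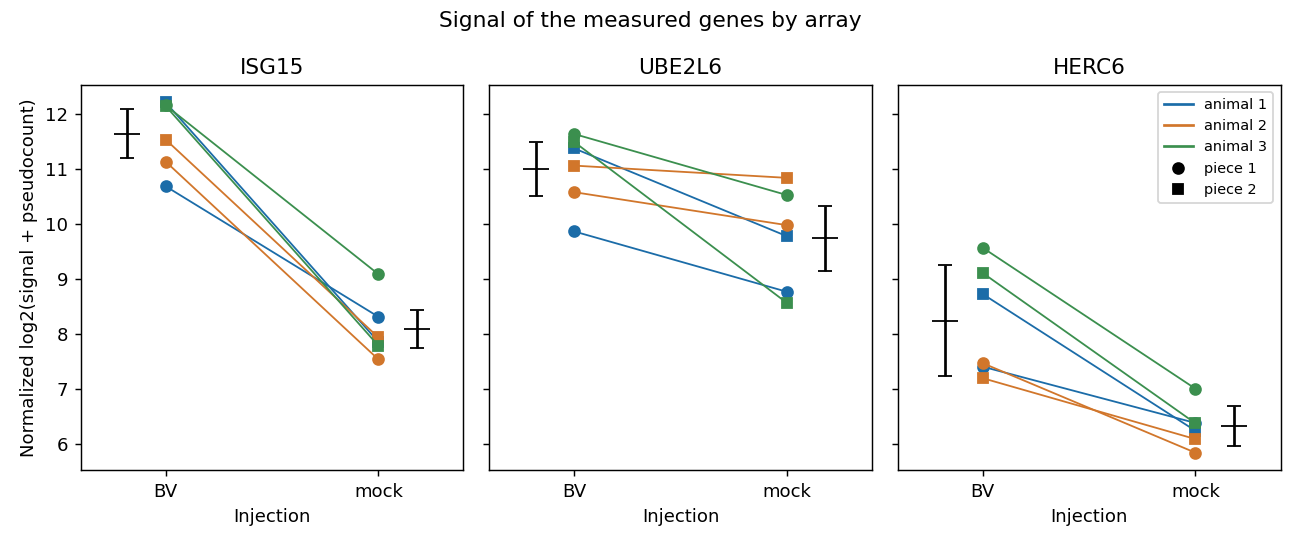
Normalized log2 signal of ISG15, UBE2L6 and HERC6 on each array, BV on the left and mock on the right; lines join arrays with the same replicate number, colours give the animal, shapes the piece, and black bars the mean and SD over 3 animals. All lines are higher at BV; the groups are apart for ISG15 and HERC6 and overlap for UBE2L6.

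The members did not share one order of animals. HERC6 and UBE2L6 differed most in animal 3, at 2.65 and 2.02, less in animal 1, at 1.75 and 1.35, and least in animal 2, at 1.37 and 0.41. ISG15 differed by similar amounts in all 3 animals, with an SD over animals of 0.18, against 0.66 for HERC6 and 0.81 for UBE2L6. Whether the treatment difference varied by animal was tested with an F test in limma on the 12 arrays. The pieces of a hemisphere served as its replicates there, so the error of the test includes differences in region between pieces. The F test called 0 of the 3 members, with unadjusted p of 0.89 for ISG15, 0.135 for HERC6 and 0.275 for UBE2L6. It called 0% of all probe sets (5.12% had an unadjusted p below 0.05). The difference between animals thus did not pass for any of the 3 members, which does not show that the animals responded alike.

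The pieces are array sets of unlike scale, with median deposited signals of 50.2 to 62.8 on piece 1 arrays and 25.4 to 32.7 on piece 2 arrays. The mean pair difference was larger in piece 2 than in piece 1 for each measured member: 4.10 and 3.01 for ISG15, 2.11 and 1.74 for HERC6, and 1.58 and 0.94 for UBE2L6. In limma's test of the piece by treatment interaction 0 of 3 passed (unadjusted p = 0.0681, 0.478 and 0.436 for ISG15, HERC6 and UBE2L6), and 0% of all probe sets did (1.61% had an unadjusted p below 0.05).

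**Figure D2:**
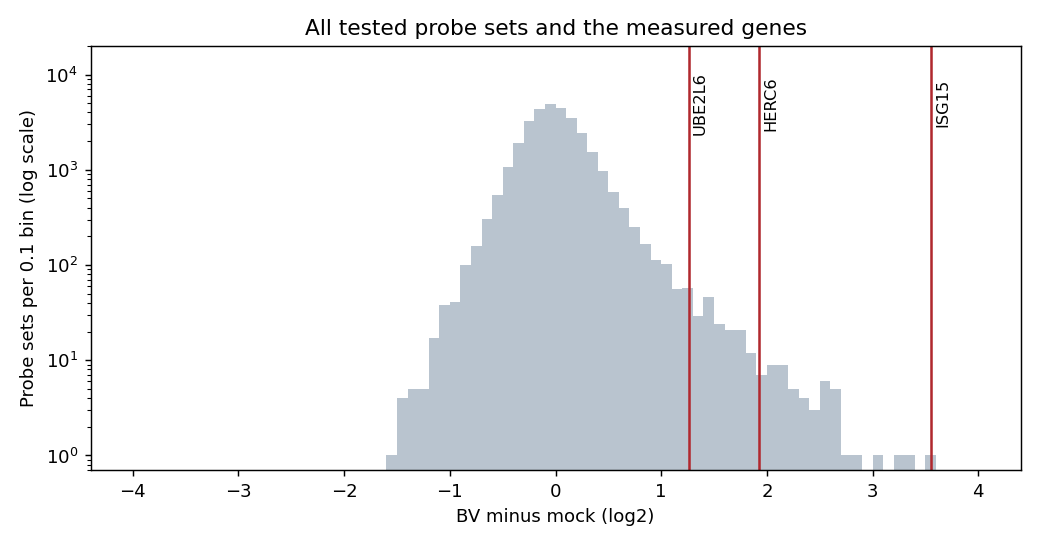
Number of tested probe sets (log scale) in each 0.1-wide bin of the BV minus mock log2 difference, with red lines at the 3 measured members. ISG15 stands at the right end at 3.56, HERC6 at 1.92 and UBE2L6 at 1.26, with the median of all probe sets at -0.02.

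UBA7, the E1 that starts the chain and is not on the member list, had 5 probe sets, all tested, and none passed. Its brightest had a mean log2 signal of 11.46 ± 0.04 in BV tissue and 11.56 ± 0.12 in mock tissue (SD, n = 3), with a difference of -0.10 ± 0.09 (adjusted p = 0.661). The pair differences were small, from -0.24 to -0.01, and lower in BV in 6 of 6 pairs. The share of all probe sets lower in 6 of 6 pairs is not given here. The next 3 by brightness had differences of -0.11, -0.08 and 0.07. The dimmest stood apart, with normalized signals of 97.8 to 241 in BV arrays, against 82.4 to 125 in mock arrays. Its difference of 0.47 ± 0.17 was positive in 6 of 6 pairs, as for 3.37% of tested probe sets. It was largest in animal 3 at 0.83, and did not pass (adjusted p = 0.564). Whether the UBA7 probe sets differ from each other, and which transcripts each detects, was not tested.

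**Figure D3:**
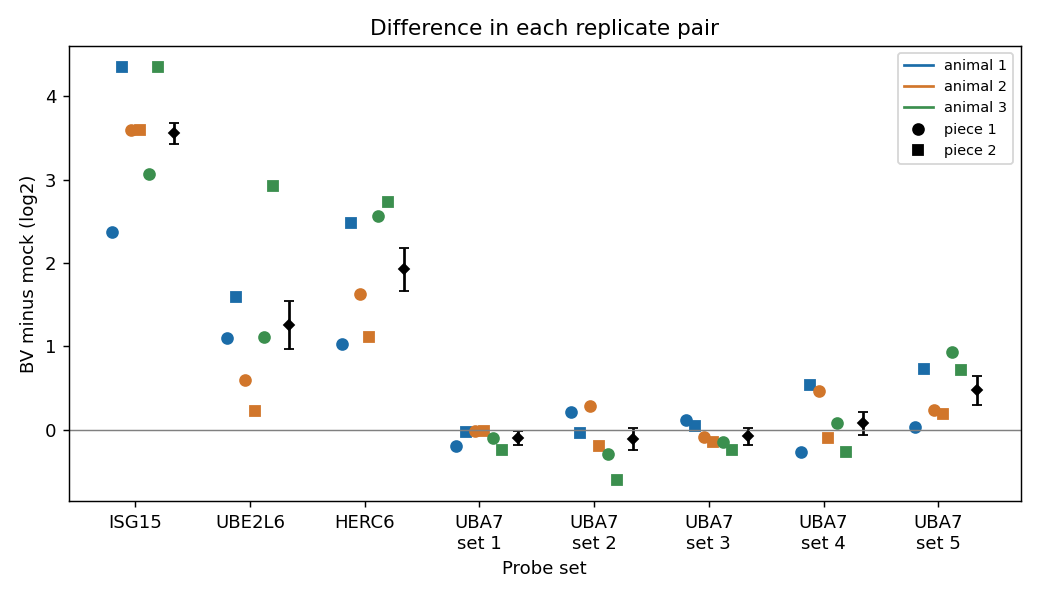
BV minus mock log2 difference in each of the 6 replicate pairs for the member probe sets and for the 5 UBA7 probe sets, ordered from brightest (set 1) to dimmest (set 5). Colours give the animal, shapes the piece, and black diamonds the limma estimate with its SE; ISG15, UBE2L6 and HERC6 are above 0 in every pair, and of the UBA7 probe sets only set 5 is.

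Of the other ISG15 partners, a list of 9 genes that includes UBA7, 7 were tested and 0 passed, with 4 higher and 3 lower and a median of 0.01. TRIM25, a ubiquitin ligase also described as a ligase for ISG15, had the largest difference, at 1.25 ± 0.24 (adjusted p = 0.375). Its BV arrays, with a mean log2 signal of 8.62, lay above its mock arrays, at 7.36, without overlap, as for 0.237% of tested probe sets. Another of its 3 tested probe sets had a difference of -0.11. Of the proteases reported to cleave ISG15 besides USP18, USP21 had 0.47 ± 0.28 (adjusted p = 0.582) and USP14 -0.24 ± 0.15 (adjusted p = 0.587). The list also held USP16, USP24 and the ligase ARIH1, with differences of -0.11, 0.01 and 0.22. Other probe sets went as far as -0.42 for USP16 and 0.69 for ARIH1.

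The receptor chain that drives ISG15 transcription was thinly covered, with 3 of 7 genes tested and 0 passing. IFNAR2, the receptor subunit that USP18 binds, had a difference of 0.74 ± 0.25 (adjusted p = 0.564), with 5 of 6 pairs higher. STAT2, a transcription factor of the interferon response and adaptor for USP18, had 0.46 ± 0.19 (adjusted p = 0.564). It was higher in 6 of 6 pairs, as were 3.37% of tested probe sets. The kinase TYK2 had -0.23 ± 0.21 (adjusted p = 0.677).

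Among 15 proteins described as ISG15 targets, 10 were tested, of which 2 were raised and 9 had higher values, with a median of 0.49. MX1, an antiviral GTPase, rose by 3.04 ± 0.19 (adjusted p = 0.0256) and IFIT3, an antiviral RNA-response protein, by 2.13 ± 0.14 (adjusted p = 0.0256). Both are interferon-induced genes themselves. IFIT1, which binds viral RNA, had 2.60 ± 0.22 (adjusted p = 0.072), IFIH1, the RNA sensor MDA5, 1.97 ± 0.24 (adjusted p = 0.194), and PCNA, the sliding clamp of DNA replication, 0.68 ± 0.23 (adjusted p = 0.564). The others, IRF3, TSG101, XRN2, BECN1 and PLCG1, lay between -0.02 and 0.29. Over all tested probe sets the median was -0.02, and 46.9% were higher.

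By their brightest probe sets, relatives of the members had differences near that of all probe sets. Of the 5 paralogs tested 0 passed, 1 was higher and 4 were lower, with a median of -0.11. The other HERC genes had -0.24 ± 0.17 for HERC1, -0.08 ± 0.14 for HERC2, -0.17 ± 0.15 for HERC3 and -0.11 ± 0.14 for HERC4. UBE2L3, the ubiquitin E2 most like UBE2L6, had 0.16 ± 0.12. Of 13 ubiquitin and ubiquitin-like modifier genes 4 were tested and 0 passed, with differences between -0.10 for URM1 and 0.09 for SUMO2 and with -0.05 for NEDD8. Of 9 E2 enzymes of other modifiers 7 were tested and 0 passed, between -0.14 for UFC1 and 0.22 for UBE2D1. Adjusted p was 0.594 or above for the brightest probe sets of these 3 lists. Other probe sets reached 0.51 for UBE2L3, 0.52 for UBE2D1 and 0.40 for UBE2N, and none of the tested ones lay below the -0.24 of HERC1.

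**Figure D4:**
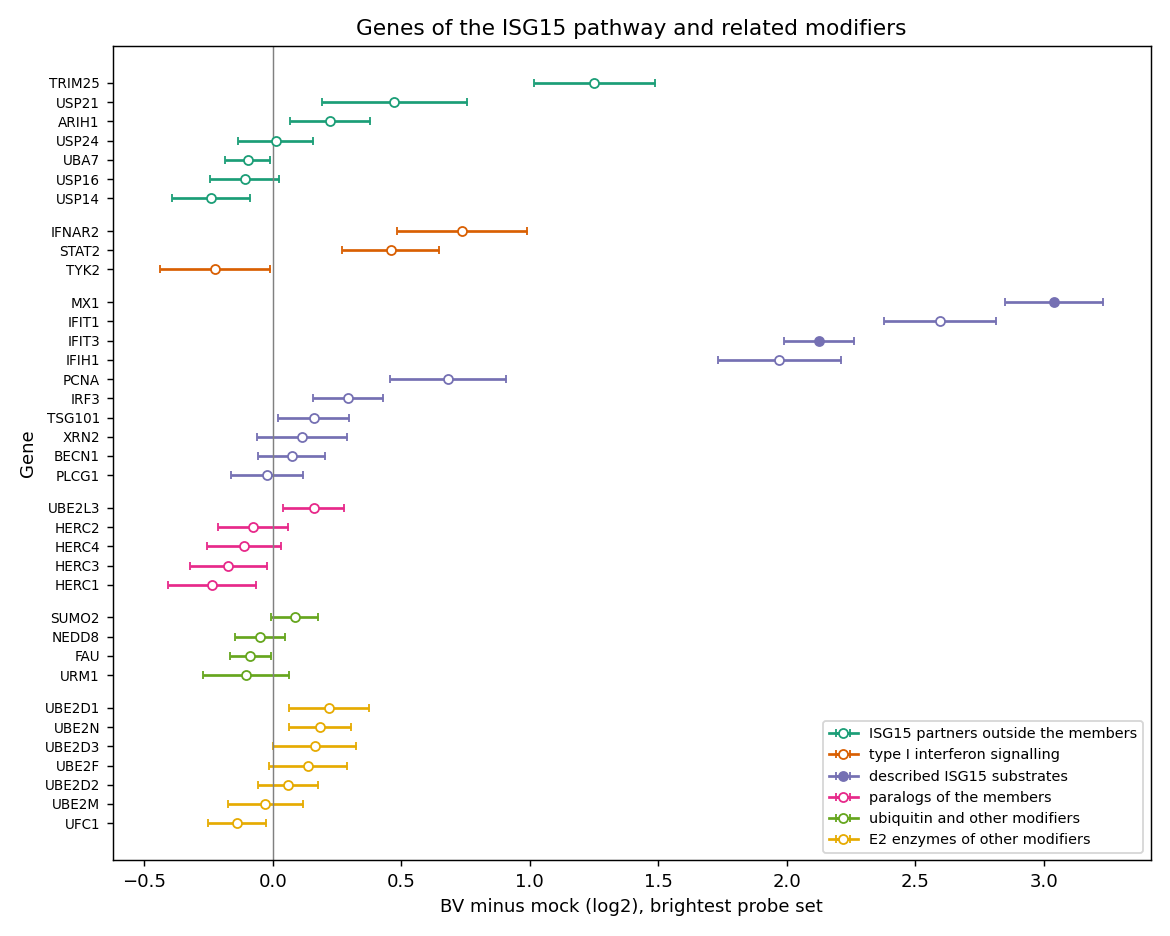
BV minus mock log2 difference of the brightest probe set, with its SE, for each tested gene of the 6 lists around ISG15; filled points passed at an adjusted p below 0.05. MX1 and IFIT3 are filled, TRIM25, IFIT1 and IFIH1 lie to the right without passing, and paralogs, other modifiers and other E2 enzymes lie between -0.24 and 0.22.

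The genes with signals most like those of each member differed. Over the 12 arrays, among 11140 named genes other than the members, ISG15 was most like MX1 (Pearson r = 0.98), IFIT1 (0.98), TTLL6 (0.96), LGALS3BP (0.95) and IFI27 (0.95). HERC6 was most like OAS1 (0.97), TRIM25 (0.96) and BTN3A3 (0.95), and UBE2L6 most like NCF1 (0.99), GBP1 (0.98) and NMI (0.97). Between members, r was 0.91 for ISG15 and HERC6, 0.75 for ISG15 and UBE2L6, and 0.72 for UBE2L6 and HERC6. These arrays share animals and fall into BV and mock, so r follows the treatment as well as other sources of variation and is given as a description.

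Some markers of other cells and regions had values that differed between the sides, though none of the 43 tested passed in the limma fit (0 called, 19 at an unadjusted p below 0.05, lowest adjusted p = 0.101 for SHOX2, a thalamic transcription factor). Of 10 microglia and macrophage markers, all measured, 7 had higher values in BV tissue. The 3 lower ones were ITGAM (-0.62, higher in 0 of 6 pairs), CX3CR1 (-0.33) and P2RY12 (-0.10). The summed normalized signal of all 10 was 6015 to 15527 in BV arrays and 4315 to 9861 in mock arrays, higher in 6 of 6 pairs. C1QA, C1QB and C1QC, the brightest, weigh most in this sum and had differences of 0.58, 0.95 and 0.85. Of 7 neutrophil and monocyte markers 6 were measured and all 6 had higher values, with sums of 1003 to 6161 in BV arrays and 242 to 4286 in mock arrays, higher in 6 of 6 pairs. In this and the microglial list the brightest probe set stood for each gene. Other tested probe sets went the other way, with -0.25 for LCN2, -0.17 for CD68, -0.16 for AIF1 and 0.22 for P2RY12. Of 6 T and NK cell markers 2 were measured, both with higher values, with sums of 67.8 to 429 in BV arrays and 65.4 to 129 in mock arrays, higher in 5 of 6 pairs. Of 4 endothelial markers 3 were measured and all 3 had higher values, with sums of 757 to 1416 in BV arrays and 756 to 1141 in mock arrays, higher in 6 of 6 pairs. Among mock arrays, replicate 5 had the highest sums of the microglial and of the T and NK cell lists and the highest ISG15 and HERC6 signals, while replicate 4 had the highest neutrophil and monocyte sum and the highest UBE2L6 signal.

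Averaged over animals, thalamic markers leaned higher and medium spiny neuron markers lower in BV tissue, but not in every gene or pair. Thalamic markers (6 of 8 measured) had higher values in BV tissue for 5 of 6 genes, with a median difference of 1.15, and their sum, 1252 to 10117 in BV arrays and 1054 to 10071 in mock arrays, was higher in 6 of 6 pairs. Medium spiny neuron markers (8 of 14 measured) had lower values in BV tissue for 8 of 8 genes, with a median of -0.92. Their sum was 1008 to 6475 in BV arrays and 1250 to 11929 in mock arrays, higher in BV in 3 of 6 pairs. Among other tested probe sets, FOXP1 reached 0.13, and the thalamic gene PRKCD, lower by its brightest, reached 0.08. Some pairs were unlike in region. For replicates 2 and 5 the thalamic sums were 9048 and 3952 in BV against 1941 and 1662 in mock arrays. Their medium spiny neuron sums were 1008 and 1649 in BV against 8284 and 8424 in mock arrays. For replicate 1 the thalamic sums were close, at 10117 and 10071. No measured marker was at 0. The actin 3'/5' signal ratio, a sign of RNA quality, was 2.40 on mock replicate 6, against 1.10 on mock replicate 3, the lowest, and 1.4 on mock replicate 4, the next highest. The pair of replicate 6 gave the largest difference for all 3 measured members, but clearly so only for UBE2L6, at 2.93 against at most 1.60 in the other pairs. For ISG15 it was 4.36, against 4.35 for replicate 2, where the actin ratios were 1.27 in BV and 1.24 in mock. For HERC6 it was 2.73, against 2.56 for replicate 5. Without mock replicate 6 the differences were 3.34 for ISG15 (limma adjusted p = 0.00147), 1.82 for HERC6 (0.0481) and 0.93 for UBE2L6 (0.176), in a fit that called 42 probe sets. In bulk tissue more cells of a type and more RNA per cell cannot be told apart, and the part of these markers and of RNA quality in the differences was not tested.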

How the data were processed

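The authors deposited 1 column of probe set intensities per array, on a linear scale. GCOS 1.4.0.036 is the software listed in the submitters' processing notes; how probes were summarised and scaled is not given in the sources used here. Detection calls were not used. The array was designed for rhesus macaque, and its GEO annotation gave the symbols; cynomolgus RNA may bind less well. The members and lists were chosen with earlier results of these data known.

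The 12 arrays were quantile-normalized and taken as log2(signal + 3.49), the pseudocount being percentile 10 of all intensities, so differences of dim probe sets are understated. The 99 control probe sets were left out, and probe sets were tested where their mean log2 value reached percentile 40 (4.95). Both pieces of a hemisphere were averaged and fitted in limma 3.58.1 (R 4.3.3) with animal as block, eBayes with trend, 2 residual degrees of freedom, two-sided, and Benjamini-Hochberg adjustment at 0.05. The script was tested on simulated data, where it called 2% of log2 differences of 1, 58% of those of 2 and 80% of those of 4. A difference near 1 that did not pass thus does not show that a gene was unchanged. That both hemispheres belong to 1 animal comes from the treatment protocol. The sample titles give the injection and the replicate number and name neither animal nor piece. Deviations from group means correlated at r = 0.156 to 0.622 within animals. No value between animals is set beside these, so they do not settle which arrays share an animal. The number of arrays limits the precision.

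The brightest probe set stood for each list gene. Named were all member and UBA7 probe sets, the list genes that passed or had the 3 largest differences, and the genes most like each member; some other list genes are named as well, chosen after their values were seen. Alternatives covered normalization, pseudocount, filter, block, piece, variance trend and left-out arrays.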

Additional observations from a re-analysis of the deposited data

Results flagged for a closer look

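One array stood apart in the groups of 6 examined. For 1 of the UBA7 probe sets, the second of a pair built on the same target and with a log2 difference of -0.08, BV replicate 4 lay at 10.99 with the nearest BV array at 11.23, a gap of 0.704 of the range of the BV arrays, above Dixon's 95% critical value. Chance alone flags about 1 in 20 groups, and 16 groups were examined. No array of ISG15, HERC6 or UBE2L6 was singled out.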

How the results depend on the processing

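ISG15, HERC6 and UBE2L6 were higher in BV tissue under all 35 alternatives run for each. The ISG15 call was kept in 31 of them; piece 2 arrays alone did not pass (3.82, adjusted p = 0.125), nor did the fits without replicate 2 (3.26), replicate 5 (3.72) or mock replicate 5 (3.75). Over all fits with arrays or animals left out, the ISG15 difference ran from 3.26 to 3.86. HERC6 passed with the replicate block (1.92, adjusted p = 0.0266) and with an animal block and piece term (1.92, adjusted p = 0.0325), fits that count the pieces of a hemisphere as independent. It did not pass with duplicateCorrelation (1.92, adjusted p = 0.0715), and ranged from 1.56 to 2.21 with arrays or animals left out. UBE2L6 ranged from 0.87 to 1.68 there, and passed without animal 2. Of the member probe sets, 2 were called with the replicate block and with the animal block and piece term, 1 with duplicateCorrelation, 0 in the piece 2 arrays (3 at an unadjusted p below 0.05), and 0 to 3 with arrays left out. Over all probe sets the count of 9 became 1 without normalization or without the trend, 5 without the filter, 55 with the replicate block, 4 with animals not blocked, 38 with the piece term, 36 with duplicateCorrelation, 16 in piece 1 and 0 in piece 2 (1769 at an unadjusted p below 0.05), and 0 to 1843 with arrays left out. Quantile normalization within each piece set, chosen after seeing the data, gave 8. The cause of these shifts was not tested. Where 1 array was left out, its hemisphere rested on the other piece. The alternatives planned for HERC5 and USP18 were not run, as neither has a probe set of its own symbol.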
